A study of Mus musculus with 6 samples.

Results

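The genes described here encode the subunits of the mouse proteasome, its assembly chaperones, its activators and its inhibitor. They were chosen by name, as every gene whose symbol begins with Psma, Psmb, Psmc, Psmd, Psme, Psmf or Psmg followed by a digit. Names containing -ps, which mark pseudogenes, were left out, which removed 4 genes. The rule found 50 of the 54532 genes in the table. Of these, 48 had a mean of at least 0.5 FPKM (fragments scaled to gene length and library size) over the 6 samples and were tested. One of the 48, Psmc3ip, shares the stem of its name with a subunit but encodes a protein of meiotic recombination, so 47 of the tested genes belong to the proteasome by function.

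The samples were CD8 T cells, which kill infected and transformed cells, purified from the spleen and lymph nodes of mice wild type for PTPMT1 (WT, n = 3) or knocked out for it (KO, n = 3). Ptpmt1 encodes a mitochondrial phosphatase needed to make cardiolipin, a lipid of the inner mitochondrial membrane. All cells of both groups were activated in vitro for 3 days with Dynabeads carrying antibodies to CD3 and CD28. Age, strain, the deleted exons and any Cre driver are not stated in the labels. Nor do they say whether each replicate is its own animal, so the spread behind the p-values is that of these samples and may be technical in part.

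The proteasome is the main protease of the cytosol and nucleus for proteins tagged with ubiquitin. Its 20S core is a barrel of stacked alpha and beta rings with the cutting sites of Psmb5, Psmb6 and Psmb7 inside. In lymphocytes and in cells exposed to interferon gamma, these catalytic subunits can be replaced during assembly by Psmb8, Psmb9 and Psmb10, giving the immunoproteasome, which makes many of the peptides shown on class I molecules. The 19S cap, with a base of ATPases and a lid, binds, deubiquitinates and unfolds substrates. Genes of the 20S and the 19S are known targets of the transcription factor Nfe2l1 when proteasome capacity is short, whereas the immunoproteasome genes respond to interferon through factors such as Irf1.

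The libraries held 14932604 to 16819913 reads assigned to genes, as rebuilt from the FPKM. A tested proteasome gene had 119 (Psmg3) to 12721 (Psmb1) reads in a library, with a median of 2431.5. Ptpmt1 itself had 3.90 ± 0.199 FPKM in the WT group (SD, n = 3) against 1.36 ± 0.314 in the KO group (SD, n = 3), and each KO sample was below each WT sample (limma adjusted p = 0.0884). KO replicates 2 and 3 stood apart from the rest, in opposite directions. Mitochondrial genes took 7.53% of the reads of KO replicate 2 and 2.38% of those of KO replicate 3, against 3.38% to 4.76% elsewhere. Ribosomal protein genes took 19.1% and 10.96%, against 12.9% to 15.3%. KO replicate 3 also had 0 reads of Xist and 1837 of the Y-linked Ddx3y, whereas the other 5 libraries had at least 3513 of Xist and 0 of Ddx3y. The summed FPKM of 5 gamma-delta T cell markers was 26.4 to 52.8 in the WT libraries and 27.4, 64.3 and 174 in KO, and that of 8 neutrophil and mast cell markers was 6.30 to 19.7 in the WT libraries and 15.8, 15.4 and 48.6 in KO. The B cell list was at 318 to 408 in WT and 258 to 332 in KO, and the natural killer, myeloid and erythroid lists were at most 17.1, 10.9 and 14.00 in any library. Of all these markers C1qa alone was at 0 throughout. The summed FPKM of 10 CD8 T cell genes was 1784 to 2139 in the WT libraries and 1724, 1965 and 1245 in KO, and that of 4 CD4 and regulatory T cell genes was at most 5.995. The sex difference, the marker levels and the read composition move with individual KO libraries. Their part in the results was not tested, so values without KO replicate 3 are given beside the main results.

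Proteasome transcripts took a larger share of the reads in every KO library than in any WT library. The share was 0.682%, 0.635% and 0.837% across the WT replicates, in order of their number, and 1.01%, 0.992% and 0.893% across those of KO. Of the 48 tested genes, 47 had a higher mean log2 level in KO (39 after each library was rescaled to the same FPKM total), against 52.4% of all 12654 genes tested (34.3% after rescaling), and the exception was the immunoproteasome subunit Psmb9. The median log2 fold change (KO minus WT) of the 48 was 0.57, against 0.031 over all genes tested. In bulk samples a different mix of cells and a different level per cell cannot be told apart. No gene of the 48 was called at an adjusted p under 0.05 by limma, where 0.0395% of all genes were called (5 genes), and none was called by limma-voom on the rebuilt reads. Adjusted p ranged from 0.107 for Psmd11 to 0.951 for Psmb8. At an unadjusted p under 0.05, 23 of the 48 were higher in KO, against 11.5% of all genes, and 0 were lower, against 10.2% (21.8% in either direction). limma-voom gave 26 genes at that level, against 21.99% of all genes in either direction. Every KO sample lay above every WT sample in 21 of the 48 genes, against 14.5% of all genes, and below in 1, Psmb9, against 13.3%.

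The difference was carried unevenly by the KO libraries. KO replicate 1 was above all 3 WT samples in 40 of the 48 genes, KO replicate 2 in 36 and KO replicate 3 in 29, against 35.9%, 38.8% and 35.2% of all genes. The median deviation from the WT mean of the same gene was 0.70, 0.70 and 0.27 on the log2 scale in KO replicates 1 to 3. Without KO replicate 3, limma called 20 of the 48 genes, all higher in KO, against 8.12% of all genes called higher and 5.58% called lower, and the median was 0.71. Without KO replicate 2, 0 were called, 16 had an unadjusted p under 0.05 and a higher level (9.92% of all genes), and the median was 0.47. Without WT replicate 1, WT replicate 2 or KO replicate 1, 10, 10 and 9 of the 48 were higher at an unadjusted p under 0.05 (6.69%, 5.65% and 6.76% of all genes) and 0 were called. Among WT samples, replicate 3 was the highest in 39 of the 48 genes, against 40.3% of all genes. When each library was rescaled to the same FPKM total, the median of all genes moved to -0.20 and that of the 48 to 0.30. On that scale 10 of the 48 were higher at an unadjusted p under 0.05 (3.83% of all genes).

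**Figure D1:**
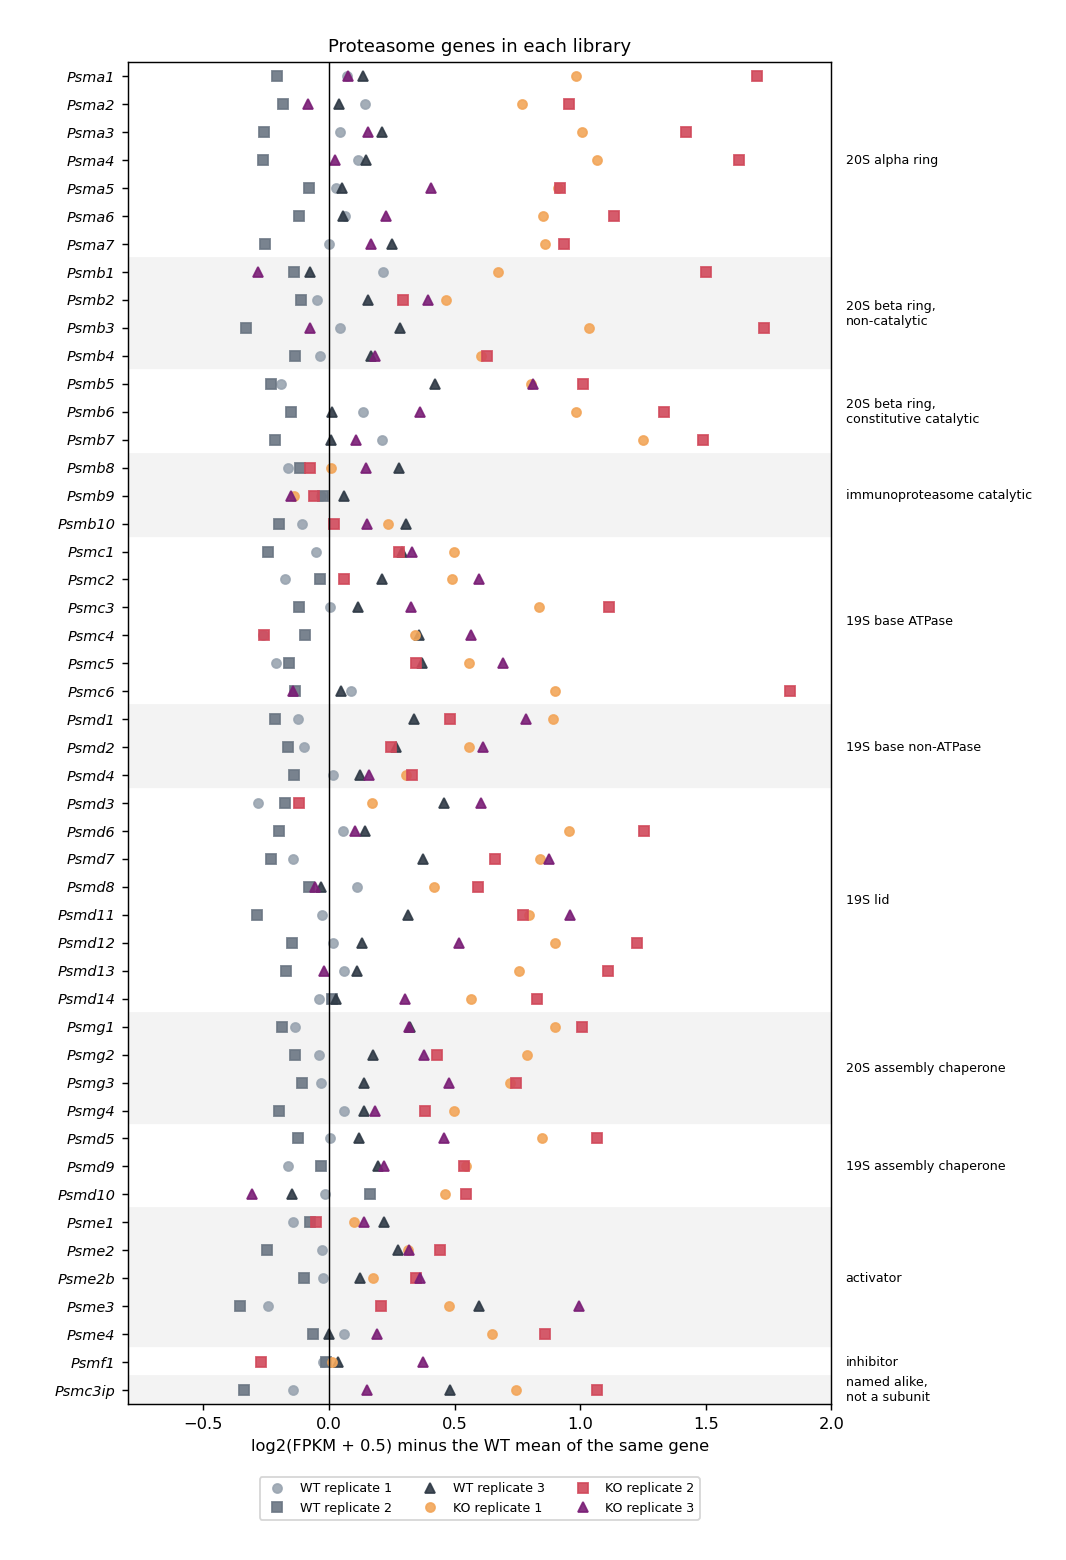
Level of each of the 48 tested genes in each library, as log2(FPKM + 0.5) minus the mean of the 3 WT samples for the same gene, with genes in rows grouped by role. Points are single libraries, and the KO points lie mostly to the right of 0. KO replicate 3 is the KO library nearest to the WT mean in most rows of the alpha and beta rings, but not for Psmb2 and Psmb5. For Psmb8, Psmb9 and Psmb10 the point furthest to the right is WT replicate 3, so no KO point lies above all WT points.

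The alpha ring, which forms the gate of the barrel, had higher levels in KO in all 7 of its genes, also after rescaling to the same FPKM total. WT means ran from 36.1 to 135 FPKM and KO means from 69.7 to 232. The log2 fold changes ran from 0.55 (Psma2) to 0.92 (Psma1) with a median of 0.75, and 4 of the 7 had an unadjusted p under 0.05. The libraries disagreed in size. The median deviation of the ring from the WT mean was 0.91, 1.14 and 0.15 in KO replicates 1 to 3, and KO replicate 2 was the highest library in all 7 genes. Psma4 had 109, 83.6 and 111 FPKM in the WT samples, listed by replicate number, and 211, 313 and 102 FPKM in the KO samples. KO replicate 3 thus lay within the WT range for Psma4, and it was no higher than the highest WT sample in 5 of the 7 genes. Psma5 and Psma6 were the 2 whose groups did not overlap, with 101, 93.9 and 103 FPKM in WT and 187, 188 and 132 in KO for Psma5. Without KO replicate 3 all 7 were called (adjusted p 0.0344 to 0.0385), with a median of 0.99; without KO replicate 2 the median was 0.54 and 0 were called.

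The 4 beta subunits without a cutting site, Psmb1 to Psmb4, were also higher in KO, by 0.39 (Psmb2) to 0.90 (Psmb3) on the log2 scale, and all 4 kept that direction after rescaling. Among them Psmb2 alone had an unadjusted p under 0.05 (0.0484 by limma). Its values were 66.1, 63.3 and 76.2 FPKM in WT and 94.6, 83.9 and 89.97 in KO, so each KO sample was above each WT sample. Psmb3 spread far more within KO, with 96.5, 74.3 and 114 FPKM in WT and 192, 312 and 88.7 in KO. Its KO replicate 3 lay inside the WT range while KO replicate 2 was the highest of all libraries. Psmb1 was similar, with 86.4, 67.3 and 70.5 FPKM in WT and 119, 211 and 61.02 in KO, and KO replicate 3 was the lowest of its 6 libraries. Without KO replicate 3, Psmb3 was called (adjusted p 0.0376) and the other 3 were not (adjusted p 0.0513, 0.139 and 0.0527 for Psmb1, Psmb2 and Psmb4).

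The constitutive catalytic subunits had the largest median difference of any role with more than 1 gene, 0.89. Psmb5 (mm10 chromosome 14, 54614119 to 54618022, minus strand) carries the chymotrypsin-like site. It had 76.5, 74.5 and 117 FPKM in the WT samples, listed by replicate number, and 153, 177 and 154 FPKM in the KO samples. Every KO sample was above every WT sample, and KO replicate 3 was as high as KO replicate 1 (log2 fold change 0.88, SE 0.226, limma adjusted p = 0.116). Psmb6 (chromosome 11, 70525367 to 70527858, plus strand) carries the caspase-like site and had 79.6, 65.3 and 73.2 FPKM in WT and 144, 183 and 93.2 in KO. The groups did not overlap, with KO replicate 3 the lowest of the KO samples (log2 fold change 0.89, SE 0.269, limma adjusted p = 0.142). Psmb7 (chromosome 2, 38588036 to 38644087, minus strand) carries the trypsin-like site and had 38.99, 28.9 and 33.8 FPKM in WT and 80.7, 95.3 and 36.3 in KO. KO replicates 1 and 2 were far above WT, but KO replicate 3 was below WT replicate 1, so the groups overlapped (log2 fold change 0.95, SE 0.363, limma adjusted p = 0.196). Without KO replicate 3, Psmb6 and Psmb7 were called (adjusted p 0.0344 and 0.0344), with log2 fold changes of 1.16 and 1.37, and Psmb5 was not (0.91, adjusted p 0.0561).

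Promoter windows of 250 bases before the RefSeq start were searched on both strands for the letters TGACNNNGC, the core of the antioxidant response element that Nfe2l1 and Nfe2l2 bind, in the RefSeq table for GRCm38.p6, which matched 42 of the 50 genes. The letters were in 5 of the 42 (11.9%: Psmb5, Psmb6, Psmc6, Psmd12 and Psmd9), near the 10.2% of all 32851 windows in the table. The 42 genes had 45 windows, so their shares count genes, whereas the shares beside them count windows. Of the other letters searched, an element of interferon regulatory factors (GAAA repeated after a gap of 2 free bases) was in 3 of the 42 (7.14%, against 2.98% of windows), CCAAT in 15 (35.7%, against 33.9%) and the E-box CACGTG in 4 (9.52%, against 6.02%). A match is a description of the letters, not of binding. The windows of Psmb8 and Psmb9 held neither of the first 2 motifs. Shown here, 5′ to 3′ on the strand of the gene and without exon bases, are stretches of 3 of the 5 genes with TGACNNNGC. They are the catalytic subunits Psmb5 and Psmb6 and the lid subunit Psmd12, whose KO samples all lay above WT. Of the 5, Psmd9 and Psmc6 are not shown. The KO samples of Psmd9 also lay above WT, whereas the groups of Psmc6 overlapped. A link between the letters and the level in KO was not tested. Capitals mark the TGACNNNGC match, which begins 47 bases before the start in Psmb5, 9 in Psmb6 and, on the opposite strand, 247 in Psmd12.
Psmb5, chr14:54618023-54618245, minus strand: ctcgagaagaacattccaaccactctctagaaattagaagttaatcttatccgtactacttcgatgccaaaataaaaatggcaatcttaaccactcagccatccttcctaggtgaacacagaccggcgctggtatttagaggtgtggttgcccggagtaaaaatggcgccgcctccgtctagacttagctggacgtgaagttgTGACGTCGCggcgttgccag
Psmb6, chr11:70525107-70525356, plus strand: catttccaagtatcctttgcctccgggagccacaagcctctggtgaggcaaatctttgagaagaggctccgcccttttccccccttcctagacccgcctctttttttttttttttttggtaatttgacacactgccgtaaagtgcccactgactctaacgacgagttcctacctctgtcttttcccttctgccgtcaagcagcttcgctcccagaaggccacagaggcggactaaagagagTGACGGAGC
Psmd12, chr11:107479278-107479483, plus strand: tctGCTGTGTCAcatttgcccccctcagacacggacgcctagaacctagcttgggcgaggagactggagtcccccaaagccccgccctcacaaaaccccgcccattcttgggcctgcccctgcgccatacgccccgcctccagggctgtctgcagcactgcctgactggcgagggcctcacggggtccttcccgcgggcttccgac

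The immunoproteasome subunits had log2 fold changes near 0. Psmb8 (chromosome 17, 34197721 to 34201454, plus strand), which takes the place of Psmb5, had 146, 151 and 198 FPKM in the WT samples, listed by replicate number, and 164, 155 and 181 FPKM in the KO samples. Its groups overlapped fully, with a log2 fold change of 0.026 (95% interval -0.44 to 0.49, limma adjusted p = 0.951). Psmb9 (chromosome 17, 34181987 to 34187764, minus strand), which takes the place of Psmb6, had 83.2, 83.6 and 88.7 FPKM in WT and 77.3, 81.7 and 76.6 in KO. Every KO sample was below every WT sample, by a small margin (log2 fold change -0.12, 95% interval -0.47 to 0.24, limma adjusted p = 0.684). Psmb10 (chromosome 8, 105935735 to 105938444, minus strand), which takes the place of Psmb7, had 86.9, 81.5 and 116 FPKM in WT and 110.2, 94.8 and 104 in KO, and its groups overlapped (log2 fold change 0.14, 95% interval -0.33 to 0.60, limma adjusted p = 0.718). WT replicate 3 was the highest of the 6 libraries in all 3. With KO replicate 3 left out, 0 of the 3 were called and their median was -0.035. After rescaling to the same FPKM total, Psmb8 and Psmb10 turned negative (-0.24 and -0.14). Each of these 3 genes overlaps another gene on the opposite strand in GENCODE M21 (Gm20496 for Psmb8, Tap1 for Psmb9, Gm16156 for Psmb10). The sources used here do not give the strand setting of the counting, so reads in the overlaps are uncertain, which holds for 19 of the 48 tested genes.

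The ratio of an immunoproteasome subunit to its constitutive partner does not depend on the scaling of the library. It does depend on the gene lengths behind the FPKM, 2736 bases for Psmb8 and 899 for Psmb5. The transcripts with the longest coding sequence have 1628 and 899 bases. Whether a ratio is above or below 1 thus does not say which partner had more transcripts. The change of the FPKM ratio between WT and KO does not depend on the lengths. The FPKM ratio of Psmb8 to Psmb5 was 1.91, 2.02 and 1.69 in the WT samples and 1.07, 0.875 and 1.18 in the KO samples. Each WT sample held more Psmb8 than Psmb5 in FPKM, whereas in KO the FPKM of the partners was nearly equal, and the groups did not overlap (log2 difference -0.85). The ratio of Psmb9 to Psmb6 was 1.04, 1.28 and 1.21 in the WT samples and 0.538, 0.446 and 0.821 in the KO samples. It was above 1 in every WT sample and below 1 in every KO sample (log2 difference -1.01). The ratio of Psmb10 to Psmb7 was 2.23, 2.82 and 3.42 in the WT samples and 1.37, 0.995 and 2.87 in the KO samples, and KO replicate 3 lay within the WT range (log2 difference -0.81). Exact 2-sided permutation tests gave p = 0.1 for the first 2 pairs, the smallest that 3 against 3 samples allow, and p = 0.3 for the third (exact permutation test adjusted over the 3 pairs, 0.15, 0.15 and 0.3). No pair could reach 0.05. Without KO replicate 3 the log2 differences were -0.94, -1.26 and -1.24, and without KO replicate 2 they were -0.73, -0.82 and -0.49.

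**Figure D2:**
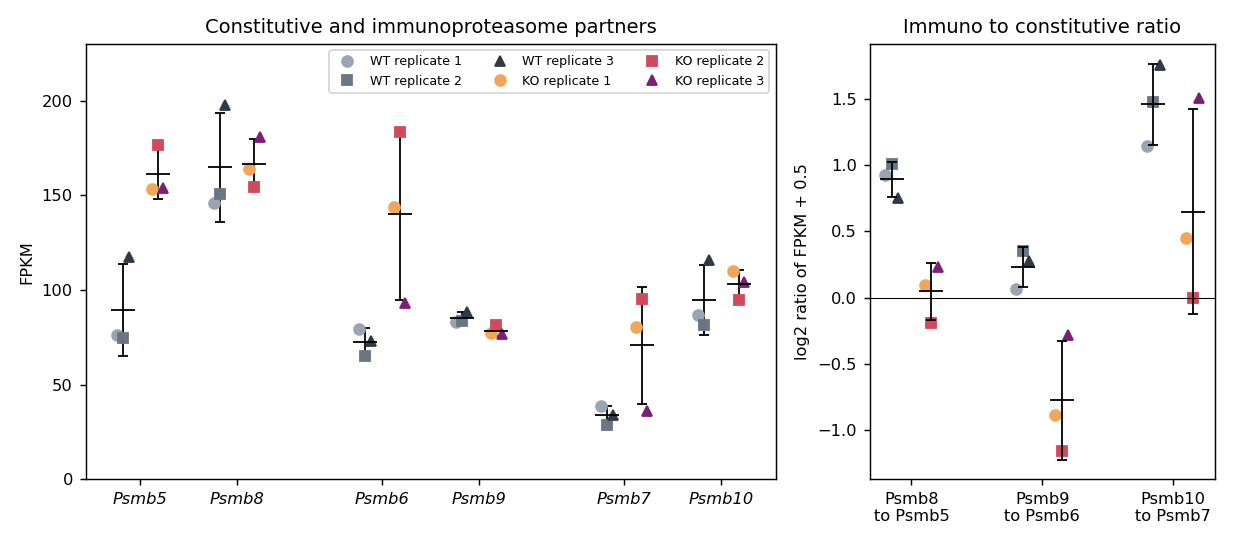
Left, FPKM of the 6 catalytic subunits, constitutive and immunoproteasome partners side by side; right, log2 ratio of each immunoproteasome subunit to its partner. Points are libraries, bars mark the mean and SD of 3 samples; the ratios of Psmb8 to Psmb5 and of Psmb9 to Psmb6 do not overlap between WT and KO, and that of Psmb10 to Psmb7 does.

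In the 19S base, the 6 ATPases Psmc1 to Psmc6, which unfold the substrate and open the core, were higher in KO by 0.22 (Psmc4) to 0.86 (Psmc6), with a median of 0.46, and all but Psmc4 kept that direction after rescaling to the same FPKM total. Psmc3 and Psmc5 had an unadjusted p under 0.05 (0.0145 and 0.0438 by limma). Psmc3 had 73.9, 67.8 and 79.9 FPKM in WT and 132, 160.3 and 92.5 in KO, and its groups did not overlap. Psmc6 spread most, with 57.6, 49.4 and 56.00 FPKM in WT and 102, 195 and 49.1 in KO. KO replicate 2 was 1.98 above KO replicate 3 on the log2 scale, and KO replicate 3 was the lowest of the 6 libraries. Psmc4 ran the other way, with 30.9, 34.8 and 47.8 FPKM in WT and 47.3, 31.00 and 55.2 in KO, so that KO replicate 3 was the highest library and KO replicate 2 was within the WT range. With KO replicate 3 left out, Psmc3 and Psmc6 were called and the median of the 6 was 0.42.

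The large scaffold subunits of the base, Psmd1 and Psmd2, and the ubiquitin receptor Psmd4 were higher by 0.72, 0.47 and 0.27, where Psmd4 turned to -0.0028 after rescaling. Psmd1 had 14.02, 13.1 and 19.5 FPKM in WT and 28.8, 21.6 and 26.7 in KO and Psmd4 had 44.9, 40.3 and 48.4 FPKM in WT and 55.1, 56.01 and 49.6 in KO. Their groups did not overlap, and KO replicate 3 was above all WT samples in all 3 genes. Psmd1 and Psmd2 had an unadjusted p under 0.05 (0.0104 and 0.0457 by limma). None of the 3 was called without KO replicate 3.

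The 19S lid removes and recycles ubiquitin chains. All 8 of its tested subunits were higher in KO, from 0.22 (Psmd3) to 0.88 (Psmd12) with a median of 0.69, where Psmd3 turned to -0.046 after rescaling, and 5 had an unadjusted p under 0.05. Psmd11 had 8.88, 7.36 and 11.4 FPKM in the WT samples, listed by replicate number, and 16.1, 15.8 and 18.1 FPKM in the KO samples. Every KO sample was above every WT sample and the KO samples lay close together (log2 fold change 0.84, SE 0.191, limma adjusted p = 0.107), the smallest p of the 48 genes. Psmd12 had 31.6, 28.1 and 34.2 FPKM in WT and 58.6, 73.6 and 44.9 in KO, again without overlap (log2 fold change 0.88, SE 0.216, limma adjusted p = 0.110). Psmd7 had 36.5, 34.3 and 52.3 FPKM in WT and 72.5, 63.9 and 74.3 in KO and no overlap either (log2 fold change 0.79, SE 0.206, limma adjusted p = 0.117). In Psmd11 and Psmd7 KO replicate 3 was the highest library, whereas in Psmd12 it was the lowest of the KO samples. Psmd14, the metalloprotease that cuts ubiquitin from the substrate, had 40.6, 42.2 and 42.7 FPKM in WT and 62.2, 74.5 and 51.7 in KO, without overlap (log2 fold change 0.57, limma adjusted p = 0.153). Psmd6, Psmd8 and Psmd13 had KO replicate 3 within the WT range. With KO replicate 3 left out, Psmd6, Psmd12, Psmd13 and Psmd14 were called.

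Chaperones that build the core and the base were higher in KO as well. Psmg1 to Psmg4 form the pairs that assemble the alpha ring. They were higher by 0.35 (Psmg4) to 0.74 (Psmg1), and 3 of the 4 had an unadjusted p under 0.05. Psmg3, the least abundant of the 48, had 2.85, 2.68 and 3.27 FPKM in WT and 5.14, 5.24 and 4.27 in KO. Its groups did not overlap (log2 fold change 0.65, SE 0.166, limma adjusted p = 0.115). Psmg2 had 33.9, 31.7 and 39.4 FPKM in WT and 60.5, 47.1 and 45.5 in KO and Psmg4 had 65.1, 54.3 and 68.7 FPKM in WT and 88.3, 81.6 and 70.98 in KO, both without overlap. Of the 3 tested chaperones of the base, Psmd5 had 6.73, 6.12 and 7.33 FPKM in WT and 12.5, 14.6 and 9.41 in KO. Every KO sample was above every WT sample (log2 fold change 0.79, SE 0.196, limma adjusted p = 0.111). Psmd9 had 3.19, 3.54 and 4.23 FPKM in WT and 5.53, 5.50 and 4.31 in KO, without overlap (limma adjusted p = 0.222). Psmd10 (gankyrin), on chromosome X, had 22.9, 26.1 and 20.9 FPKM in WT and 32.1, 34.1 and 18.7 in KO, and KO replicate 3 was the lowest library. Its log2 fold change of 0.23 turned to -0.034 after rescaling. The chaperones called without KO replicate 3 were Psmg1, Psmg3 and Psmd5.

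Among the activators, Psme1 and Psme2 form the interferon-inducible PA28 cap, Psme3 forms a nuclear cap and Psme4 encodes PA200. Psme1 had 146, 153 and 188 FPKM in WT and 173, 156 and 178 in KO, with full overlap (log2 fold change 0.064, 95% interval -0.37 to 0.50, limma adjusted p = 0.867). After rescaling to the same FPKM total its difference was -0.21. Psme2 had 116, 99.04 and 142 FPKM in WT and 146, 159.9 and 147 in KO, and its near-identical copy Psme2b had 122, 116 and 135 FPKM in WT and 140.2, 158 and 159.7 in KO. Each KO sample was above each WT sample in both, with log2 fold changes of 0.36 and 0.30 (limma adjusted p = 0.325 and 0.345). The transcripts of the pair matched over 794 bases with 5 mismatches (99.4% identity), so how reads were split between them is uncertain. Psme3 had 33.4, 30.9 and 60.2 FPKM in WT and 55.3, 45.8 and 79.6 in KO. WT replicate 3 was above KO replicates 1 and 2, and KO replicate 3 was the highest library (log2 fold change 0.56, SE 0.319, limma adjusted p = 0.345). Psme4 had 10.8, 9.92 and 10.4 FPKM in WT and 16.6, 19.3 and 11.9 in KO, without overlap (log2 fold change 0.57, SE 0.201, limma adjusted p = 0.175), and it was called without KO replicate 3 (adjusted p 0.0349). Psmf1, the proteasome inhibitor PI31, had 5.31, 5.35 and 5.54 FPKM in WT and 5.45, 4.39 and 7.16 in KO and a log2 fold change of 0.039 (95% interval -0.43 to 0.51, limma adjusted p = 0.923), which turned to -0.20 after rescaling to the same FPKM total.

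The 2 genes below the filter encode subunits restricted to other tissues. Psmb11, of the thymoproteasome, had 3 reads in WT replicate 1 and 0 in each of the other 5 libraries, where a floor of 3 reads allows up to 0.0477 FPKM. Psma8, of the testis proteasome, had 0, 4 and 1 reads in WT and 2, 4 and 17 in KO, where the 17 were in KO replicate 3. Floors cover counting error only. Psmc3ip, the meiotic gene that the rule took in by name, had 8.06, 6.98 and 12.7 FPKM in WT and 15.3, 19.3 and 9.997 in KO (log2 fold change 0.65, limma adjusted p = 0.264).

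The 20S core and the 19S cap differed in how the KO libraries were ordered. KO replicate 2 was the highest of the 6 libraries in 13 of the 14 genes of the core without the immunoproteasome, and KO replicate 3 in 0. In the 17 genes of the 19S, KO replicate 2 was the highest in 8 and KO replicate 3 in 7. Over all genes tested, KO replicate 2 was the highest library in 28.3% and KO replicate 3 in 22.7%. The median deviation from the WT mean was 0.89, 1.23 and 0.16 in KO replicates 1 to 3 for the core and 0.57, 0.59 and 0.52 for the 19S. KO replicate 2 minus KO replicate 3 thus had a median of 1.01 in the core and -0.050 in the 19S on the log2 scale, against -0.0061 over all genes. These are descriptions of single libraries, and the difference between the complexes was not tested. In WT, replicate 3 was the highest in 9 of the 14 core genes and 15 of the 17 of the 19S.

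**Figure D3:**
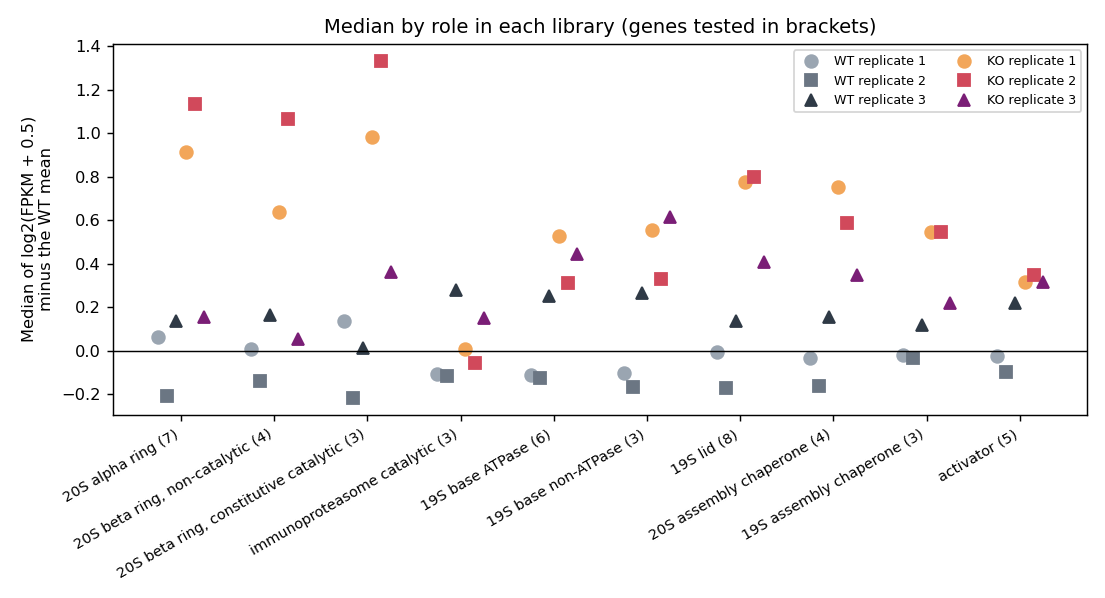
Median over the genes of each role of log2(FPKM + 0.5) minus the WT mean of the gene, for each library. KO replicate 2 is the highest library for the alpha ring and the beta ring roles, and KO replicate 1 for the 20S assembly chaperones. KO replicate 3 is the highest of the KO libraries for the non-ATPase part of the 19S base.

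KO replicate 2 tended to stand higher relative to KO replicate 3 in genes of lower GC content, and lower in genes of higher GC content. Across the 48 genes, KO replicate 2 minus KO replicate 3 had a Pearson r of -0.47 and a Spearman rho of -0.39 with the GC percentage of the transcript. Over 10494 of all genes tested the values were -0.34 and -0.38. With coding length, rho was -0.28 in the 48 genes and -0.36 over all genes. All points share the same 2 libraries, and genes are not independent replicates. The extremes were Psmc6, Psmb3 and Psmb1 (1.98, 1.81 and 1.78) on one side and Psmc4, Psme3 and Psmd3 (-0.82, -0.79 and -0.72) on the other. The part of GC content and length in the genotype difference was not tested.

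**Figure D4:**
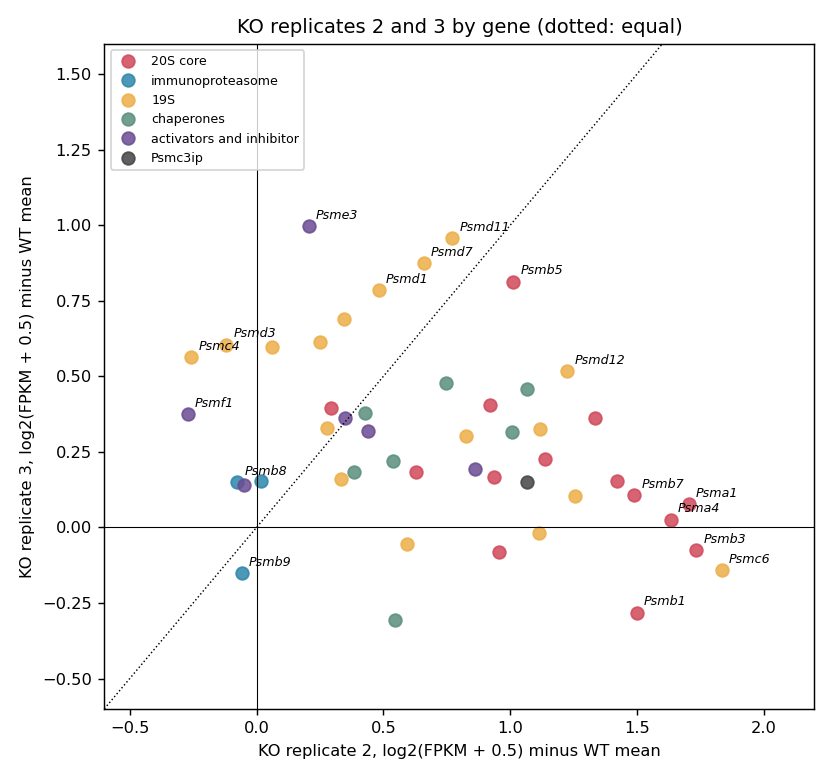
Deviation from the WT mean, log2(FPKM + 0.5), in KO replicate 2 (horizontal) against KO replicate 3 (vertical) for the 48 genes, with the dotted line marking equal values. The 20S core genes lie mostly below the line and many 19S genes on or above it.

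Genes that work with the proteasome were read from lists of 71 genes, of which 69 were tested and 0 were called by limma. Of these 69, 16 had an unadjusted p under 0.05 and a higher level in KO, 5 had one and a lower level, and the median log2 fold change was 0.14. Over all genes the shares at that level were 11.5% higher and 10.2% lower. With KO replicate 3 left out, 8 of the 69 were called higher and 8 lower, against 8.12% and 5.58% of all genes. Of 3 proteasome parts with other names, Pomp, which matures the core, had 26.6, 25.9 and 31.9 FPKM in WT and 43.6, 50.4 and 31.9 in KO (limma adjusted p = 0.198). The ubiquitin receptor Adrm1 and the small lid subunit Sem1 had log2 fold changes of 0.23 and 0.45, with KO replicate 2 of Sem1 at 138 FPKM and KO replicate 3 at 26.6. Among 9 enzymes and factors that bind the proteasome, 5 were higher at that level and none lower. With KO replicate 3 left out, Ecpas, Usp14, Uchl5 and Txnl1 were called higher and the ubiquitin ligase Ubr4 lower. Ecpas, an adaptor of the 26S particle, had 8.97, 8.32 and 8.90 FPKM in WT and 15.3, 16.9 and 12.4 in KO, and the deubiquitinase Usp14 had 9.97, 7.89 and 10.5 FPKM in WT and 17.00, 16.7 and 13.9 in KO. Both were without overlap (log2 fold change 0.72 and 0.72, limma adjusted p = 0.107 and 0.109). Of 10 shuttles and unfoldase factors, 9 were higher in KO and 1 lower, and 3 of the higher ones had an unadjusted p under 0.05. The Vcp cofactor Nsfl1c had 15.9, 15.5 and 19.9 FPKM in WT and 29.9, 29.00 and 26.3 in KO, without overlap (log2 fold change 0.72), and Faf1 had a log2 fold change of 0.59.

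The ubiquitin-activating enzyme Uba6 had 4.47, 3.52 and 3.65 FPKM in WT and 5.93, 7.56 and 6.17 in KO, higher in every KO sample (log2 fold change 0.69, limma adjusted p = 0.113). Of 8 cytosolic peptidases, which trim the products of the proteasome, 3 were higher and none lower, again counting an unadjusted p under 0.05. Lap3 had 10.4, 11.4 and 19.2 FPKM in WT and 30.5, 24.6 and 28.6 in KO and Nln had 1.73, 1.56 and 1.92 FPKM in WT and 4.21, 4.19 and 3.07 in KO, both without overlap (log2 fold change 1.05 and 0.94, limma adjusted p = 0.109 and 0.0954). Of 12 genes of class I antigen processing, 2 were higher and 1 lower, against 11.5% and 10.2% of all genes. Without KO replicate 3, 0 were called higher and 4 lower, against 8.12% and 5.58% of all genes. The 4 were Nlrc5, Tap1, Tap2 and Tapbp. The chaperone Canx had 59.2, 58.9 and 76.1 FPKM in WT and 96.2, 91.5 and 111 in KO, higher in every KO sample (log2 fold change 0.62, limma adjusted p = 0.135). Nlrc5, the transactivator of class I genes, had 37.6, 39.4 and 39.5 FPKM in WT and 25.5, 20.99 and 31.97 in KO, lower in every KO sample (log2 fold change -0.58, limma adjusted p = 0.156, and -0.73 with limma adjusted p = 0.0364 without KO replicate 3). Tap1, the peptide transporter that overlaps Psmb9, had 97.4, 102 and 101 FPKM in WT and 63.9, 55.99 and 96.7 in KO, and KO replicate 3 was close to WT (log2 fold change -0.51, limma adjusted p = 0.252, and -0.74 with limma adjusted p = 0.0349 without KO replicate 3).

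Of 10 genes of interferon signalling to the immunoproteasome, 1 was higher with an unadjusted p under 0.05 and 3 were lower. Over all genes the shares at that level were 11.5% higher and 10.2% lower. Irf1 alone was called without KO replicate 3 (log2 fold change -0.60, limma adjusted p = 0.0463), where 5.58% of all genes were called lower. Irf1, which activates the immunoproteasome genes, had 81.2, 87.1 and 96.7 FPKM in WT and 59.1, 56.6 and 75.2 in KO, and Jak1, a kinase of the interferon receptors, had 136, 139.7 and 93.96 FPKM in WT and 67.96, 87.7 and 64.2 in KO. Both were lower in every KO sample (log2 fold change -0.48 and -0.74, limma adjusted p = 0.194 and 0.149). Ifng, the interferon itself, had 6.32, 3.97 and 6.33 FPKM in WT and 5.79, 13.1 and 12.7 in KO (log2 fold change 0.81, limma adjusted p = 0.229). Of 11 tested regulators of proteasome genes, 0 passed that level in either direction, and Bach1 alone was called without KO replicate 3 (log2 fold change -0.97, limma adjusted p = 0.0420). Nfe2l1 had 10.9, 12.2 and 12.5 FPKM in WT and 15.9, 11.2 and 40.7 in KO. Its difference lay in KO replicate 3, and without it the log2 fold change of 0.69 was 0.17. Bach1 and Syvn1 had the smallest p of the regulators (log2 fold change -0.67 and -0.57, limma adjusted p = 0.249 and 0.262). Nfe2l2 differed by 0.11. Nfe2l3 and Ddi1 were below the filter, and Ddi1 had 0 reads in all libraries.

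**Figure D5:**
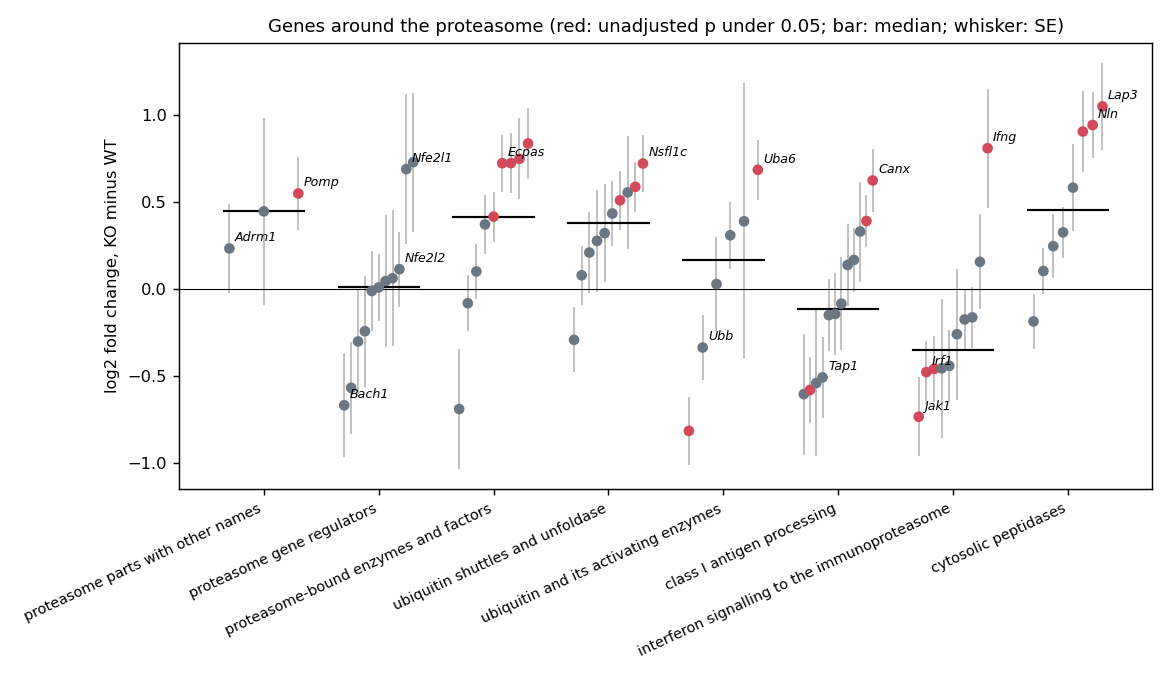
log2 fold change (KO minus WT) of the 69 tested genes of the pathway lists, by list, with the SE as whiskers, the list median as a bar and genes at an unadjusted p under 0.05 in red. Proteasome-bound factors, shuttles and peptidases lie mostly above 0, and interferon signalling genes mostly below it.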

How the data were processed

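The deposited table gives FPKM values for 54532 genes, which the authors scaled to gene length and library size. The submitters' processing notes name the build mm10, DESeq2, featureCounts 1.5.0-p3, HISAT2 2.0.5 and Trim Galore, without roles. The labels' protocols name a stranded mRNA library kit. The deposited gene length, used only to rebuild reads, is in bases and is of another kind of unit. In each column, at least 99.99% of the products of FPKM and length lay within 0.05 of a whole multiple of 1 unit, which gave reads per gene (14932604 to 16819913 per sample). These counts served depth, shares of reads and a limma-voom alternative. Identifiers were matched to GENCODE M21 (54409 matched, 123 did not), which gave coordinates and transcript GC content.

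KO was compared with WT by limma 3.58.1 (R 4.3.3; 2-sided, eBayes with a variance trend) on log2(FPKM + 0.5), over the 12654 genes whose mean over the 6 samples was 0.5 FPKM or more. p-values were adjusted by Benjamini-Hochberg over all of them, and genes under 0.05 were called. On this scale fold changes of low genes are understated. Groups that did not overlap were counted on FPKM. The genes, lists and tests were chosen with earlier results of these data known. By the rule for names, the catalytic subunits, activators, the inhibitor and the 6 genes with the smallest p in each direction are given in full, as are 2 genes per pathway list and Nfe2l1, Nfe2l2, Pomp, Adrm1, Irf1, Ifng and Tap1. Some genes of the pathway lists are counted in the totals but not reported here. Other genes with values by sample, Sem1, and pathway genes named only for a call without KO replicate 3 were chosen after their values were seen. Alternatives covered the pseudocount, filter, scaling, variance model, sample weights, replicate block, each sample left out, and limma-voom. Promoter sequences are from RefSeq for GRCm38.p6. Other steps used scipy 1.17.1, pandas 2.3.3 and matplotlib 3.10.9 under Python 3.11.15.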

Additional observations from a re-analysis of the deposited data

How the results depend on the processing

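Among the 48 tested genes, 0 were called by limma in the reported fit, 44 with sample weights (which called 56.9% of all genes), and 0 to 20 with 1 replicate left out, the 20 being without KO replicate 3. The sample weights gave KO replicate 1 a weight of 36.4, against 0.154 to 1.51 for the other libraries, and their estimation stopped before its tolerance was reached. The 23 genes at an unadjusted p under 0.05 became 44 with sample weights, 10 after rescaling to the same FPKM total and 9 to 33 with 1 replicate left out. The median log2 fold change of 0.57 was 0.30 after rescaling, which also moved the median of all genes to -0.20, and 0.47 to 0.71 with 1 replicate left out. The cause of these shifts was not tested. Single genes changed sign. After rescaling, Psmb8 was at -0.24, Psmb10 at -0.14, Psme1 at -0.21 and Psmf1 at -0.20. With 1 replicate left out, Psmb8 ranged from -0.055 to 0.16, Psme1 from -0.0081 to 0.17 and Psmf1 from -0.13 to 0.19. Under the other pseudocounts, filters, size factors, variance models and limma-voom, the number called stayed at 0 and the number at an unadjusted p under 0.05 stayed within 1.5 times of 23. With the replicate number as a block, 0 genes were called and 21 had an unadjusted p under 0.05. Samples with the same number deviated together with r = 0.13, 0.067 and 0.33, and WT replicate 1 correlated best with KO replicate 2 (0.27), so the numbers were not taken to pair the samples. With 3 samples per group, the exact tests of the ratios cannot go below 0.1.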
